A study of Mus musculus with 6 samples.

Results

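The genes described here are 8 forkhead transcription factors with known roles in skin, namely Foxc1, Foxc2, Foxq1, Foxn1, Foxa1, Foxp1, Foxo1 and Foxo3, out of 19938 genes measured. They were chosen by name. A gene was read from the brightest probe set that carries its symbol and no other, and each of the 8 had just 1 such probe set. They were picked with results of these data in view, namely low Foxc1 and Foxc2 in the double knockout. For Foxc1 and Foxc2 the levels in the double knockout are therefore described with no p-value. No support is drawn from a call of Foxc1 or Foxc2, or from the count of the 8 genes that were called. RNA of keratinocytes, which build the epidermis, was hybridised to 6 Affymetrix whole-transcript arrays; the cells came from C57BL/6 mouse skin at embryonic day 18.5. The cells were grown for some days and then given calcium, which makes keratinocytes differentiate, before RNA was extracted. There were 3 groups of 2 arrays, and each array held RNA of 2 pooled mice. Control arrays came from mice with 1 floxed Ovol2 allele, either Ovol1+/- without the Cre transgene or carrying K14-Cre. K14-Cre drives the recombinase from a keratin promoter that is active in basal keratinocytes. Ovol1 knockout mice were Ovol1-/-. Ovol1/2 double knockout mice, abbreviated DKO, were Ovol2flox/-;K14-Cre; Ovol1-/-, so they lacked Ovol1 in all cells and lost the last Ovol2 allele where Cre acts. The labels do not say which control genotype is on which array, and a pool can mix animals.

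Forkhead factors bind DNA through a winged-helix domain. FoxC factors act in mesoderm, vessels and the quiescence of hair follicle stem cells, and they can promote loss of epithelial character. FoxN1 drives keratinocytes and hair cells into differentiation, and its loss gives the nude mouse. FoxO factors are held in the cytoplasm when insulin signalling activates Akt, and in the nucleus they switch on genes of cell cycle arrest, cell death and autophagy. FoxQ1 is needed for the inner structure of the hair shaft, FoxP1 acts in follicle stem cells, and FoxA1 opens chromatin for steroid receptors. Ovol1 and Ovol2 are zinc finger repressors of epithelial cells.

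Promoter sequence was found for 6 of the 8 genes in the RefSeq promoter table (GRCm38.p6). Foxc2 and Foxq1 have no entry there. The 250 bases before the gene start are shown for Foxc1 and Foxo3, which were lower in DKO, and for Foxo1, because its window holds the letters CCGTTA, a core reported for Ovol zinc fingers. The capitals mark those letters on the opposite strand, starting 170 bases before the gene start.
Foxc1, chr13:31806396-31806645, plus strand: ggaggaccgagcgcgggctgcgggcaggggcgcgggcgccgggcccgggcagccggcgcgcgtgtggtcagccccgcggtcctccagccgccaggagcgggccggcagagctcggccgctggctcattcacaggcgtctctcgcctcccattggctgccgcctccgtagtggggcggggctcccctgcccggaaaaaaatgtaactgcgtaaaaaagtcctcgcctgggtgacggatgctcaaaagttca
Foxo3, chr10:42276696-42276945, minus strand: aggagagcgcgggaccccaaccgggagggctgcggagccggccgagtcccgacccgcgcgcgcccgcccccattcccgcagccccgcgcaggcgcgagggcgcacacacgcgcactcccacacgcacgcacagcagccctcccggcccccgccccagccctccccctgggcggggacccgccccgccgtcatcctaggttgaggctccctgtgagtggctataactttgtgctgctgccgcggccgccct
Foxo1, chr3:52268087-52268336, plus strand: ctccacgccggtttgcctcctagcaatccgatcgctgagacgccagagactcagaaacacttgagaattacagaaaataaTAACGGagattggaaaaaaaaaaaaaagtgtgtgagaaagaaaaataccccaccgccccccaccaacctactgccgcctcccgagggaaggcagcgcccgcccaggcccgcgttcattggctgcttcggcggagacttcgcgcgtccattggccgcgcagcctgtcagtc
The 300-base promoter window was 67.33% G or C in Foxc1 with 32 CpG, 75% in Foxo3 with 35 CpG and 61.33% in Foxo1 with 31 CpG. Over all 32851 promoters of that length the median was 52.67% with 7 CpG. Of the 8 windows of these genes, counting 3 starts of Foxp1, the one of Foxo1 held CCGTTA on either strand, as did 2.758% of all promoters. The forkhead letters TGTTTA were in all 3 windows of Foxp1 and in that of Foxa1, against 13.44% of all promoters. The E-box letters CAGGTG, which Zeb and Snail repressors can bind, were in Foxn1, Foxa1 and 1 of the Foxp1 windows, against 20.21%. The windows of Foxc1 and Foxo3 held none of these letters, which says nothing on binding elsewhere. No match overlapped another.

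Values are log2(intensity + 16) after quantile normalization, and a difference between group means is a log2 fold change on that scale, which understates changes of dim genes. No level of a gene is set against that of another, since probe sets differ in brightness. Of all probe sets, the middle part by quartiles lay between 6.38 and 9.65. Groups are named as labelled throughout. The mean Ovol1 level did not fall, being 10.06 in control and 10.38 and 10.59 in the Ovol1 KO and DKO groups, and Ovol2 was 8.47, 8.999 and 8.51 in the same order. Whether these probe sets lie in the deleted parts is not given in the sources used here, so the levels do not check the labels and every direction below rests on the labels. All arrays are labelled female, yet Xist was 4.71, 4.65 and 4.59 on both control arrays and Ovol1 KO 1, and 11.97, 12.12 and 12.26 on Ovol1 KO 2 and both DKO arrays. The Y-linked gene Kdm5d ran the opposite way, at 14.70 on the first 3 and 7.50 to 7.64 on the others. Between control and DKO, genotype and this split in sex-linked genes cannot be told apart, while Ovol1 KO holds 1 array of each kind. The basal keratins Krt5 and Krt14 were high on every array, at 13.68 to 13.94 and 13.61 to 13.67. The suprabasal keratins were not: on the control and Ovol1 KO arrays Krt1 was 8.97 to 9.48 and Krt10 8.89 to 9.77. In DKO Krt1 was 14.70 and 12.40, and Krt10 was 13.93 and 13.01. The labels call the arrays of a group biological replicates.

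Foxc1 and Foxc2 were the forkhead genes with the lowest DKO levels relative to control. Foxc1 stood at 10.40 and 10.40 on the control arrays, 10.55 and 10.32 on the Ovol1 KO arrays, and 8.83 and 7.89 on the DKO arrays. Both DKO arrays lay below all 4 others, and they differed from each other by more than the other arrays did. The group means were 10.40 ± 0.001 (SD, n = 2), 10.44 ± 0.16 and 8.36 ± 0.67. The log2 fold change in DKO against control was -2.04 (SE 0.31), a 4.12-fold lower level. As deposited, its intensity was 1366 and 1311 in control, 1504 and 1270 in Ovol1 KO and 438 and 233 in DKO.

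Foxc2, the close relative of Foxc1, was at 8.31 and 7.82 in control, 7.73 and 7.80 in Ovol1 KO and 5.51 and 5.35 in DKO. The DKO arrays agreed closely, and again both lay below all others. The means were 8.07 ± 0.35 (SD, n = 2), 7.77 ± 0.05 and 5.43 ± 0.12, and the log2 fold change in DKO against control was -2.64 (SE 0.20), a 6.23-fold lower level. The deposited intensities were 292 and 212, 210 and 203, and 28.8 and 25.9. The DKO values lie under the first quartile of all probe sets, and no detection call separates them from background. The offset matters here, with -3.18 at an offset of 1 and -1.80 at an offset of 64.

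With Ovol1 KO as the base, the log2 fold change in DKO was -2.08 for Foxc1 (SE 0.31), a 4.22-fold lower level. It was -2.34 for Foxc2 (SE 0.20), a 5.06-fold lower level, and ran from -2.86 at an offset of 1 to -1.55 at an offset of 64. These values restate the DKO levels for which both genes were picked, so they too are a description with no test. On Ovol1 KO 2, the array with Xist as high as in DKO, Foxc1 was 10.32 and Foxc2 7.80, near the control values. With the Xist level as a covariate, Foxc1 was at -1.80 and Foxc2 at -2.71 in DKO against control, and neither was called. Xist hardly varied within control or within DKO, so this adjustment rests almost wholly on the difference between the Ovol1 KO arrays. It cannot separate genotype from the split in sex-linked genes. FoxC genes are also active in vessels, so endothelial markers are given here. The summed intensity of the 13 markers was 3422 and 2398 in control, 2847 and 2176 in Ovol1 KO and 1460 and 1807 in DKO. In DKO against control 1 of them, Flt1, was called lower (-2.27, adjusted p = 0.0087), beside 2.26% of all genes. Flt1 was 8.99 and 8.58 in control, 8.57 and 8.43 in Ovol1 KO and 6.85 and 6.17 in DKO. Cdh5, which defines endothelium, was 6.77 to 7.06 on all arrays and Prox1 6.39 to 6.94, both under 7.68, the median of all probe sets. Cdh5 and Prox1 do not stand for the list. In it, 5 differences in DKO against control were positive and 8 negative, with a median of -0.04. In bulk RNA, fewer cells of a type and less RNA per cell cannot be told apart. The part of these markers in the FoxC levels was not tested.

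**Figure D1:**
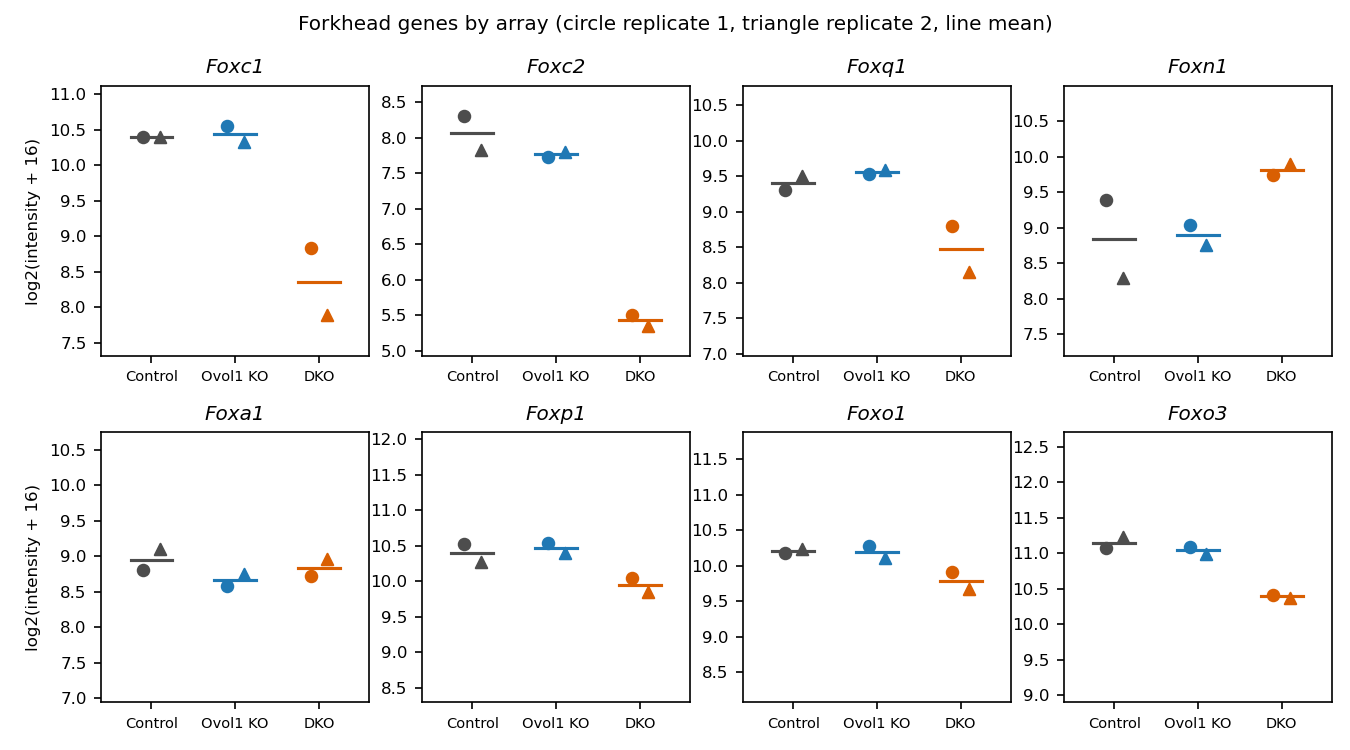
Level of each of the 8 genes on the 6 arrays, log2(intensity + 16), with 2 arrays per genotype and a line at the group mean; all panels span the same height. Both DKO arrays lie below all others for Foxc1, Foxc2, Foxq1, Foxp1, Foxo1 and Foxo3 and above all others for Foxn1, and they overlap the others for Foxa1.

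Foxq1, a factor of the hair shaft, was 9.30 and 9.50 in control, 9.52 and 9.58 in Ovol1 KO and 8.80 and 8.15 in DKO. Its DKO arrays were the lowest, with 0.46 as their SD against 0.14 in control and 0.04 in Ovol1 KO. The log2 fold change was -0.92 in DKO against control (SE 0.25, 95% interval -1.52 to -0.33, limma adjusted p = 0.13) and -1.08 in DKO against Ovol1 KO (adjusted p = 0.10). Neither passed after adjustment over all genes, although the unadjusted p was 0.0078 and 0.0036. The size turns on the DKO arrays: with 1 array left out it ran from -1.25 to -0.60 with control as the base and from -1.40 to -0.75 with Ovol1 KO as the base.

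Foxn1 was the member with its highest levels in DKO. It stood at 9.39 and 8.29 in control, 9.03 and 8.76 in Ovol1 KO and 9.74 and 9.90 in DKO. The control arrays lay farther from each other than Control 1 lay from either DKO array. Neither difference passed the test. The log2 fold change was 0.98 with control as the base (SE 0.35, adjusted p = 0.26) and 0.92 with Ovol1 KO as the base (adjusted p = 0.33). The size turns on the control arrays: without Control 1 it was 1.53 (adjusted p = 0.031) and without Control 2 it was 0.43 (adjusted p = 0.85). Of 16 keratinocyte markers 3 rose in DKO against control and 1 fell, beside 0.943% called higher and 2.26% called lower of all genes. The suprabasal keratins Krt10 and Krt1 rose by 4.14 (adjusted p = 0.0035) and 4.15 (adjusted p = 0.022), and Lor, a protein of the cornified envelope, by 1.95 (adjusted p = 0.019). The DKO arrays lay far apart for Krt1, at 14.70 and 12.40, so the size of its rise is uncertain. Itgb4, an integrin of basal cells, fell by 0.79 (adjusted p = 0.030). The summed intensity of the 16 was 88095 to 93087 on the control and Ovol1 KO arrays and 159787 and 122811 in DKO, and its part in the forkhead levels was not tested.

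Foxo3 fell in DKO. This factor, restrained by Akt, was 11.07 and 11.22 in control, 11.09 and 10.99 in Ovol1 KO and 10.41 and 10.37 in DKO. The DKO arrays were nearly equal and lay below the other 4. Against control Foxo3 fell by 0.75 (SE 0.14, adjusted p = 0.044), a 1.69-fold decrease. Against Ovol1 KO the log2 fold change was -0.65 (SE 0.14, adjusted p = 0.087), which did not pass. The call against control held in 7 of 16 alternatives, all with the same sign, from -0.83 to -0.65. It was lost without a variance trend (adjusted p = 0.054), with only the arrays compared (adjusted p = 0.085), with any 1 array left out (adjusted p from 0.081 to 0.18) and with the Xist level as a covariate (adjusted p = 0.75), while on Ovol1 KO 2 Foxo3 was 10.99.

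Foxo1, its close relative, was 10.18 and 10.23 in control, 10.28 and 10.11 in Ovol1 KO and 9.91 and 9.68 in DKO. The DKO arrays were lowest, but the log2 fold changes did not pass, with -0.41 from control (SE 0.18, adjusted p = 0.35) and -0.40 from Ovol1 KO (adjusted p = 0.40). Foxp1, a factor of follicle stem cells, was 10.52 and 10.27 in control, 10.53 and 10.39 in Ovol1 KO and 10.05 and 9.85 in DKO. In DKO its log2 fold change was -0.44 from control (SE 0.18, adjusted p = 0.32) and -0.51 from Ovol1 KO (adjusted p = 0.28). The 95% intervals against control, -0.83 to 0.01 for Foxo1 and -0.87 to -0.02 for Foxp1, still hold changes near that of Foxo3.

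Foxa1, which opens chromatin for steroid receptors in other epithelia, was 8.80 and 9.10 in control, 8.58 and 8.75 in Ovol1 KO and 8.71 and 8.96 in DKO. The 3 groups ran from 8.58 to 9.10, and DKO overlapped both others. The log2 fold change in DKO against control was -0.11 (SE 0.20, 95% interval -0.60 to 0.38, adjusted p = 0.90) and against Ovol1 KO 0.17 (adjusted p = 0.74).

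**Figure D2:**
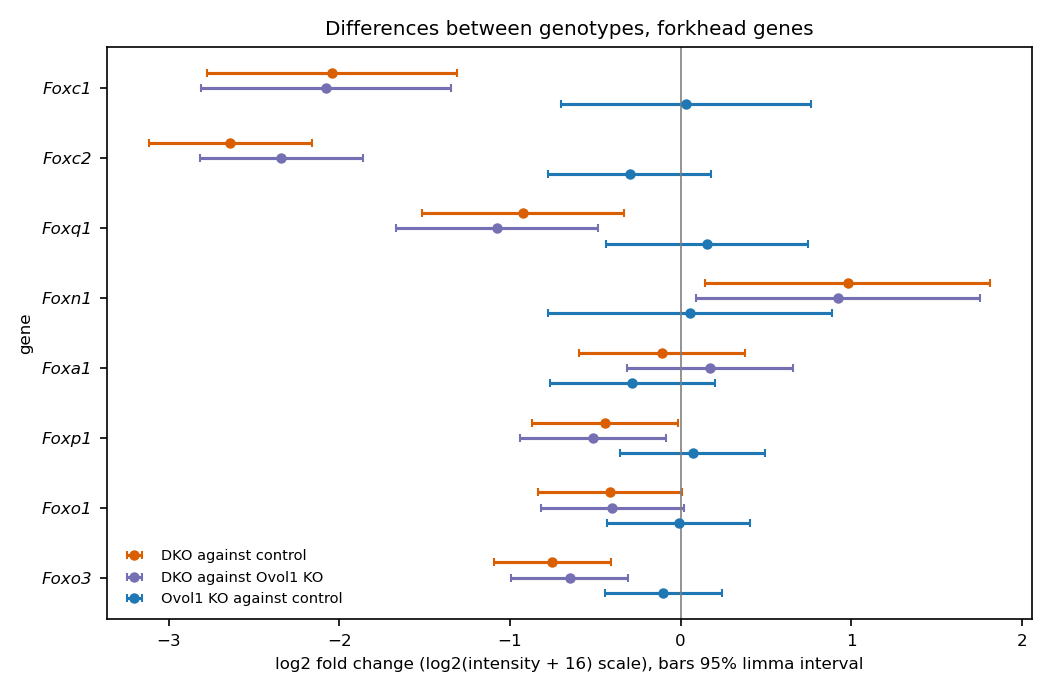
Log2 fold change of each gene in the 3 comparisons, with 95% limma intervals that are not adjusted for the number of genes. In Ovol1 KO against control every interval spans 0; in the DKO comparisons Foxc1 and Foxc2 lie farthest below 0, and DKO against Ovol1 KO shares the DKO arrays with DKO against control.

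Loss of Ovol1 alone went with no called change in any of the 8 genes. The differences in Ovol1 KO against control ran from -0.30 in Foxc2 to 0.15 in Foxq1, and 4 were positive and 4 negative. Limma called 0 of the 8, and 0 had an unadjusted p under 0.05; over all 19938 genes it called 0%, and 162 had such a p. The groups did not overlap in 3 of the 8, Foxc2, Foxq1 and Foxa1, against 24.1% of all genes. Every adjusted p of the 8 was 0.9999. The 95% intervals still allowed sizeable changes, from -0.70 to 0.77 for Foxc1 and from -0.78 to 0.89 for Foxn1.

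In DKO against control 3 of the 8 were called lower, Foxc1, Foxc2 and Foxo3, and 0 higher. Over all genes 3.2% were called, 2.26% lower and 0.943% higher. Since that comparison was known when the genes were named, nothing is read from this count. The arrays of these 2 groups did not overlap in 7 of the 8, 6 lower and 1 higher, against 44.6% of all genes. The median log2 fold change of the 8 was -0.60, beside 0.02 over all genes. In DKO against Ovol1 KO, Foxc1 and Foxc2 were called lower, while 2.15% of all genes were called and 1.49% called lower. Nothing is read from this count either, since it rests on the same DKO arrays. The arrays did not overlap in 7 of the 8 against 42.2%, and the median was -0.58 beside 0.09.

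Of the other 35 measured forkhead genes, 1 was called in DKO against control, beside 3.2% of all genes, and nothing is read from this count. The called gene was Foxn3, a repressor linked to cell cycle checkpoints. Foxn3 was 9.98 and 9.78 in control, 9.81 and 9.99 in Ovol1 KO and 10.95 and 10.70 in DKO, both DKO arrays being above all others. It rose by 0.94 in DKO against control (SE 0.18, adjusted p = 0.047), with 0.92 from Ovol1 KO to DKO (adjusted p = 0.065). A further probe set of Foxn3 gave 0.66. The call held in 6 of 16 alternatives and was lost with any 1 array left out (adjusted p from 0.081 to 0.23). The other 34 lay between -0.22 in Foxl1 and 0.29 in Foxj2, and their adjusted p did not pass. In Ovol1 KO against control the 35 ran from -0.32 in Foxd4 to 0.28 in Foxm1, with 0 called and 0 at an unadjusted p under 0.05.

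**Figure D3:**
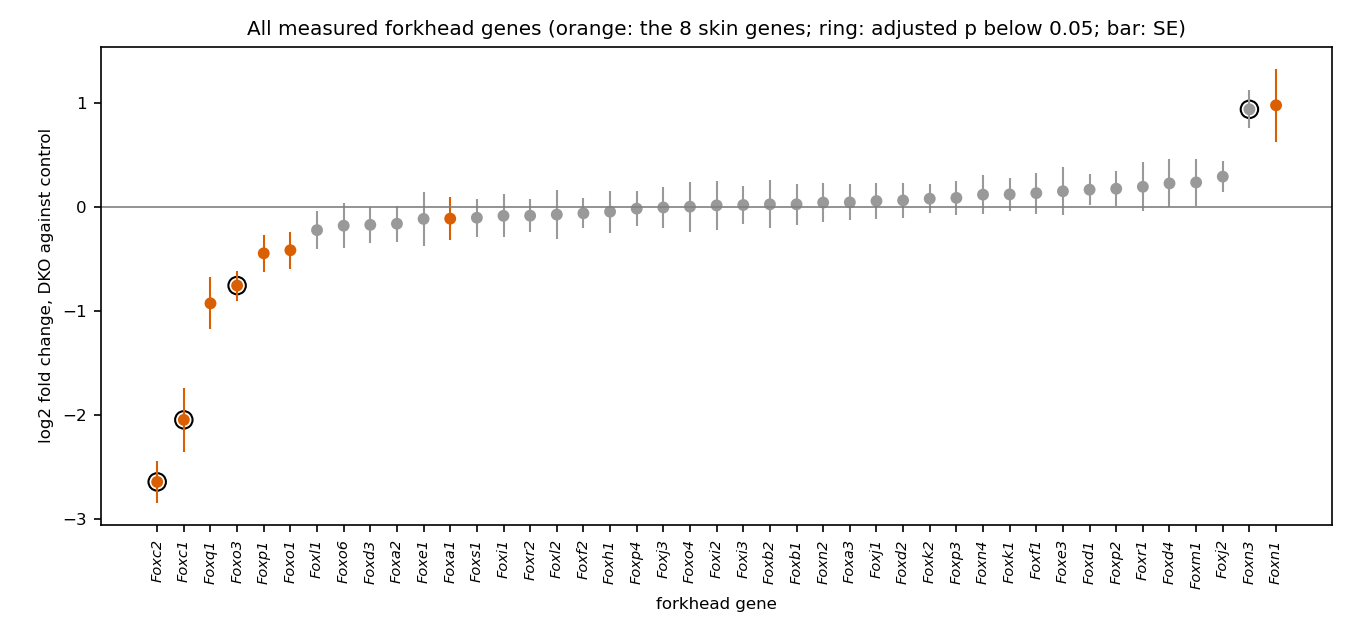
Log2 fold change in DKO against control for all 43 measured forkhead genes, ordered by value, with SE as bars; the 8 skin genes are orange and rings mark an adjusted p below 0.05. The other 34 uncalled genes lie between -0.22 and 0.29, and Foxn3 stands at 0.94. The rings of Foxc1 and Foxc2 carry no support, since both genes were picked for low DKO levels.

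Several forkhead genes sit side by side in the genome, and the 5 genes on each side of Foxc1 and Foxc2 were read in the order of the RefSeq table; these windows were chosen after values were seen. On chromosome 13 the order was Irf4, Exoc2, Hus1b, Foxq1, Foxf2, Foxc1, Gmds, Mylk4, Wrnip1, Serpinb1a and Serpinb1c. Foxf2, which lies between Foxq1 and Foxc1, was at -0.06 in DKO against control (adjusted p = 0.93). Gmds, an enzyme of GDP-fucose synthesis beside Foxc1, was 9.45 and 9.50 in control, 9.52 and 9.68 in Ovol1 KO and 8.66 and 8.24 in DKO. Against Ovol1 KO it fell by 1.15 (adjusted p = 0.047), while against control it was at -1.02 (SE 0.21, adjusted p = 0.055). Serpinb1a, a protease inhibitor, was at 1.19 against control (adjusted p = 0.097) and rose by 1.62 against Ovol1 KO (adjusted p = 0.046). The call of Gmds against Ovol1 KO held in 10 of 16 alternatives and was lost without any 1 Ovol1 KO or DKO array (adjusted p from 0.073 to 0.25). That of Serpinb1a held in 9 of 15 and was lost without Ovol1 KO 1 (adjusted p = 0.31), Ovol1 KO 2 (0.084) or DKO 1 (0.14). Of the 10 neighbours of Foxc1, 0 were called against control, beside 3.2% of all genes, with a median of -0.02.

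On chromosome 8 the order was Emc8, Cox4i1, Irf8, Foxf1, Mthfsd, Foxc2, Foxl1, 1700018B08Rik, Fbxo31, Map1lc3b and Zcchc14. The forkhead neighbours Foxf1 and Foxl1 were at 0.14 and -0.22 in DKO against control, and Mthfsd, next to Foxc2, was at -0.64 (adjusted p = 0.15). Of these 10 neighbours 1, Map1lc3b, was called, beside 3.2% of all genes, and the median was 0.04. Map1lc3b was at -0.73 by the probe set used and at -0.67 by its other one. Fbxo31 was at -0.60 by the probe set used and at 0.12 by its other one.

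**Figure D4:**
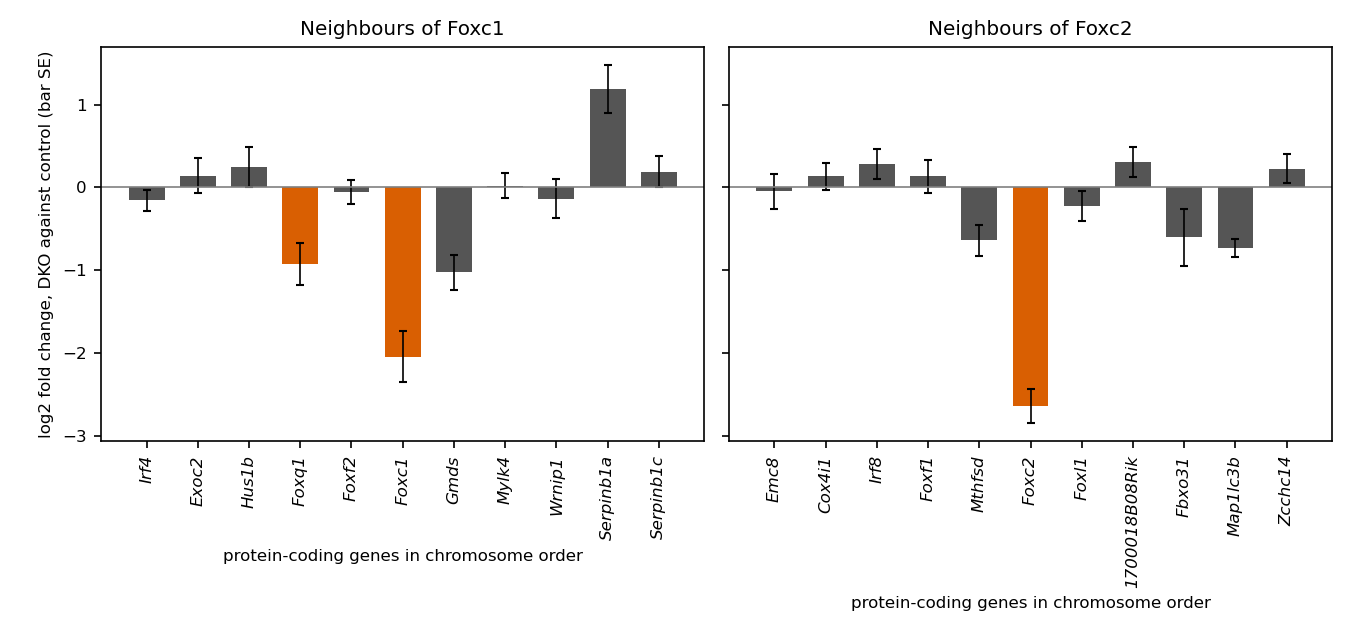
Log2 fold change in DKO against control, with SE as bars, for Foxc1 (left) and Foxc2 (right) and the 5 genes on each side in chromosome order, evenly spaced and not to scale; forkhead genes of skin are orange. Foxf2 at -0.06 lies between Foxq1 at -0.92 and Foxc1 at -2.04, and Foxl1 at -0.22 lies next to Foxc2 at -2.64.

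Genes around these factors were read from lists drawn up from general knowledge, but with earlier results of these data known. Their counts and p-values are therefore a description, and no support is drawn from them. The alternatives were run on Foxn3, the called genes named from these lists and the called neighbours of Foxc1 and Foxc2, and not on the called cell type markers. Of the 18 such genes for DKO against control, none changed sign in an alternative. Of these, 4 stayed called without DKO 1, 5 without DKO 2, 11 without Control 1 and 0 with the Xist covariate. Of the 12 such genes for DKO against Ovol1 KO, 1 stayed called without Ovol1 KO 1, 5 without Ovol1 KO 2, 3 without DKO 1, 5 without DKO 2 and 1, Krt8, with the Xist covariate. Of 30 measured FoxO target genes, of 31 listed, 4 fell and 0 rose in DKO against control, and 26 did not pass. Of all genes, 2.26% were called lower and 0.943% higher, and the same shares stand beside the counts of the lists that follow. The list median was -0.15 beside 0.02 over all genes. Cited2, a co-regulator of transcription, was 12.55 and 12.16 in control, 12.46 and 12.04 in Ovol1 KO and 10.58 and 10.80 in DKO, and fell by 1.67 (SE 0.20, adjusted p = 0.0084). Irs2, the adaptor of the insulin receptor, was 10.34 and 10.31, 10.36 and 10.17, and 8.24 and 8.97, and fell by 1.72 (adjusted p = 0.021). Bcl2l11, which encodes the cell death protein Bim, fell by 1.77 (adjusted p = 0.023). For these 3 genes both DKO arrays lay below all others, and the same 3 fell against Ovol1 KO, by 1.56, 1.66 and 2.06. Map1lc3b, a protein of autophagosomes, fell by 0.73 (adjusted p = 0.018), with -0.67 in its other probe set, and from Ovol1 KO to DKO it was at -0.54 (adjusted p = 0.061). Without DKO 1 none of the 4 stayed called, with adjusted p = 0.060 for Cited2, 0.061 for Irs2, 0.083 for Bcl2l11 and 0.090 for Map1lc3b.

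Of 24 measured genes of FoxO control, of 26 listed, 1 fell in DKO against control, namely Irs2, which stands on both lists. Most belong to the insulin receptor, Akt and 14-3-3 route that restrains FoxO, while Sirt1, Skp2, Usp7 and Stk4 lie outside it. The median was -0.08. The kinase genes Akt1 and Akt2, named after their values were seen, were at 0.05 and -0.12 (adjusted p = 0.92 and 0.77). Larger uncalled differences stood in the same list. Sgk1 was at -1.61 (adjusted p = 0.19), Pik3cb at -1.32 (adjusted p = 0.071) and Pik3r1 at 0.93 (adjusted p = 0.31). Of the 24 differences, 10 were positive and 14 negative.

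Of 22 follicle stem cell genes, 2 rose and 3 fell in DKO against control, and 17 did not pass. Nfix, a chromatin factor of those cells, was 9.65 and 10.25 in control, 9.74 and 10.56 in Ovol1 KO and 12.29 and 11.97 in DKO, and rose by 2.18 (adjusted p = 0.019). Krt15, a keratin of basal and bulge cells, rose by 4.06 (adjusted p = 0.027), and its Ovol1 KO arrays were apart, at 8.999 and 10.98. Bmp6, a ligand that keeps stem cells quiescent, was 9.05 and 9.53, 9.32 and 9.19, and 7.61 and 6.90, and fell by 2.04 (adjusted p = 0.016). Runx1 fell by 1.51 (adjusted p = 0.017) and Sox9, not among the 4 smallest p-values and so outside the naming rule, by 1.48 (adjusted p = 0.049). Nfatc1, Bmp2 and Fgf18, known from work on FoxC1 and FoxP1 in the bulge and named after their values were seen, were at -0.19, 0.26 and 0.20, with adjusted p of 0.76, 0.79 and 0.78. Without DKO 1 the calls of Nfix (adjusted p = 0.13), Krt15 (0.16), Runx1 (0.098) and Sox9 (0.21) were lost, and without DKO 2 that of Bmp6 (adjusted p = 0.065). Genes of the list that rose and genes that fell thus stood side by side, and the list median was -0.02.

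Of 24 measured hair shaft and sheath genes, the differentiation products beside Foxn1 and Foxq1, 1 fell and 0 rose, of 27 listed. Padi3, an enzyme that modifies trichohyalin, was 8.78 and 8.68 in control, 8.58 and 8.53 in Ovol1 KO and 7.58 and 7.62 in DKO, and fell by 1.13 (SE 0.17, adjusted p = 0.020). Its groups did not overlap, and it fell against Ovol1 KO as well, by 0.95 (adjusted p = 0.043), a call that held in 5 of 16 alternatives and was lost with any 1 array left out (adjusted p from 0.059 to 0.27). The call against control was lost without any 1 control or DKO array (adjusted p from 0.055 to 0.11). The list median was 0.04.

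Of 15 genes of the epithelial-mesenchymal transition, in which FoxC factors can act, 1 rose and 2 fell. Over the list 6 differences were positive and 9 negative, with a median of -0.03. The mesenchymal gene Vim was at 2.20 and not called (SE 0.80, adjusted p = 0.27). The epithelial repressor Zeb1 rose by 3.61 (adjusted p = 0.027), while Fn1 and Cdh2, also mesenchymal genes, fell by 1.92 (adjusted p = 0.036) and 1.31 (adjusted p = 0.043). Without DKO 1 none of the 3 stayed called (adjusted p from 0.15 to 0.19). The summed intensity of 14 fibroblast markers was 4758 to 5255 on the control and Ovol1 KO arrays and 10945 and 9972 in DKO. In DKO against control 10 of their differences were positive and 4 negative, with a median of 0.19 beside 0.02 over all genes. Postn was called higher and Pdgfra lower. Against Ovol1 KO 2 were called higher, Col5a2 and Postn, and 0 lower, beside 0.657% and 1.49% of all genes. Col1a1, which does not stand for the list, was 8.43 to 8.91 on all arrays. The part of fibroblast RNA was not tested.

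Of 11 measured partners and companions of Foxa1, of 12 listed, 1 rose and 3 fell, although Foxa1 itself was not called. Gata3, a factor of skin and breast epithelium, rose by 1.16 (adjusted p = 0.033). The simple-epithelium keratins Krt8, Krt18 and Krt19 fell by 3.81 (adjusted p = 0.0017), 4.03 (adjusted p = 0.046) and 4.15 (adjusted p = 0.048). The DKO arrays lay far apart for Krt18, at 10.00 and 7.43, and for Krt19, at 8.52 and 5.58. With 1 array left out, Krt18 ran from -5.31 to -2.74 and Krt19 from -5.62 to -2.68, and their calls held in 7 and 8 of 16 alternatives. Without DKO 1 Gata3 was not called (adjusted p = 0.17). In Ovol1 KO against control 0 genes of these 6 lists were called.

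**Figure D5:**
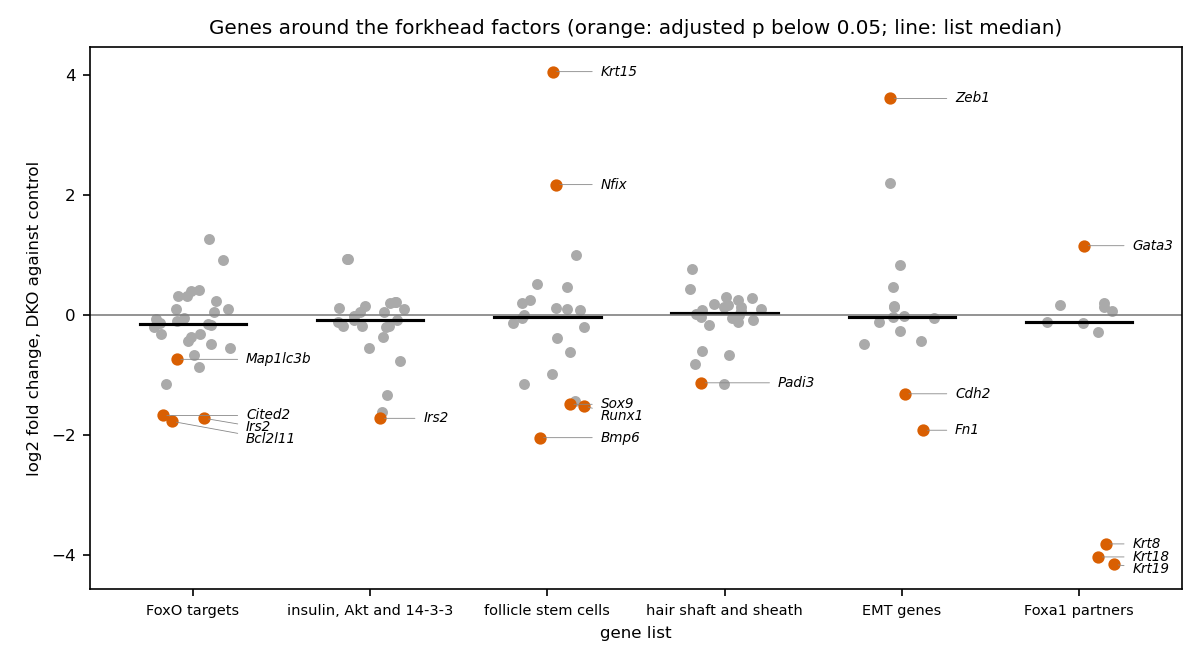
Log2 fold change in DKO against control for the measured genes of 6 lists, 1 point per gene, spread sideways for sight; orange points with names have an adjusted p below 0.05 and lines mark list medians, which lie between -0.15 and 0.04. Called genes of the FoxO target list all lie below 0, and called follicle stem cell genes lie on both sides.

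Among 9671 genes at or above the median brightness, those most like each forkhead gene over the 6 arrays were found by Pearson r, as a description without a test. Arrays of 1 genotype are not independent points here, and a gene that separates the 2 DKO arrays from the other 4 reaches a high r by that alone. Foxc1 was closest to Eps8 (0.998), Meis3 (0.998) and Ap1m2 (0.997), with 652 genes over 0.9. Foxc2 was closest to Plekhb2, Slc1a1 and Mbp, with 786 such genes. Foxq1 was closest to Zbtb39 (0.997), Krt19 (0.997) and Arg1 (0.991), with 359. Foxo3 was closest to Snx13, Agps and Marchf3, Foxo1 to Dync1i2, Bcas3 and Uaca, and Foxp1 to Rnf125, Vtcn1 and Cgn, with 714, 584 and 710 genes over 0.9. Foxn1 was closest to Card10, Dnajb4 and Sparc, with 148, and Foxa1 to Nol4, Ttc9b and Mir326, with 91. Between members, r was 0.956 for Foxc1 with Foxc2, 0.978 for Foxc1 with Foxq1 and 0.980 for Foxc1 with Foxo1, and it was negative for Foxn1 with each other member.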

How the data were processed

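The deposited values are summarised intensities, 1 per probe set and array on a linear scale. PLIER 2.0 and Affymetrix Expression Console 1.1.1 are named, without a role, in the submitters' processing notes. Background correction, normalization and filters were not given in the sources used here, and there is no detection call. From these, log2(intensity + 16) was computed and quantile-normalized, since array quartiles differed by 0.2185, above a limit of 0.2. Probe sets with 1 gene symbol (21789 of 35556; 1621 had several, 12146 none) gave 19938 genes, each read from its brightest probe set. Limma 3.58.1 in R 4.3.3 fitted 1 mean per group over all 6 arrays, with a variance trend, 3 residual and 3.89 prior degrees of freedom. P-values were adjusted by the Benjamini-Hochberg method over all genes and called below 0.05. The fit was tested on simulated data. Precision is limited by 2 arrays per group. Alternatives were offsets 1 and 64, values as deposited, the dimmest 30% left out, other eBayes settings, the mean over probe sets, only the arrays compared, a replicate block and each array left out. The Xist level as a covariate, and the alternatives run for genes outside the 8, were added after the data were seen. Members, lists and tests were chosen with earlier results of these data known. The text names all 8 members, other called forkhead genes, up to 4 called genes per list and comparison by smallest p, and the 3 genes most like each member; predicted genes, Rik transcripts and olfactory and vomeronasal receptors were skipped there. Promoters came from RefSeq, GRCm38.p6. The array values name no build.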

Additional observations from a re-analysis of the deposited data

How the results depend on the processing

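The count of all genes called in DKO against control, 639, was 1069 with the replicate block, 8 with Xist as a covariate and 258 to 735 with 1 array left out. In DKO against Ovol1 KO, 429 became 738 with only the arrays compared, 805 with the replicate block, 73 with Xist and 88 to 738 with 1 array left out. In Ovol1 KO against control, 0 became up to 4 without an array. Of the 8 forkhead genes, the 3 called in DKO against control became 0 with Xist and 2 to 3 with 1 array left out. The 2 called in DKO against Ovol1 KO became 1 with the dimmest 30% left out, which removes Foxc2, 1 with Xist and 1 to 2 with 1 array left out. Of all 43 forkhead genes, 4 called in DKO against control became 2 with only the arrays compared, 0 with Xist and 2 to 3 with 1 array left out. The 2 in DKO against Ovol1 KO became 1 with the dimmest 30% left out, 1 with Xist and 1 to 2 with 1 array left out. Beside these counts of forkhead genes stand 3.2% of all genes called in DKO against control and 2.15% in DKO against Ovol1 KO. The cause of these shifts was not tested, save that a left-out array lowers n. The sign turned in uncalled differences near 0 alone. Foxo1 in Ovol1 KO against control was -0.01, and 0.0088 as deposited, 0.073 with Xist and -0.098 to 0.072 with 1 array left out. With 1 array left out, Foxa1 in DKO against control ran from -0.26 to 0.040, and in Ovol1 KO against control Foxn1 ran from -0.49 to 0.60, Foxp1 from -0.060 to 0.20 and Foxc1 from -0.078 to 0.14. Same-numbered arrays deviated together with correlations of 0.687 (control with Ovol1 KO), 0.151 (control with DKO) and 0.087 (Ovol1 KO with DKO). The mean level of 10 melanocyte markers was 8.76 on Control 1 and 9.11 on Ovol1 KO 1, but 6.80 on Control 2 and 6.88 on Ovol1 KO 2. On DKO 1 and DKO 2 it was 7.66 and 6.63. The part of melanocyte RNA in the forkhead levels was not tested. With 2 pairs the numbers are not known to pair the mice, and the block left the calls of the 8 genes at 3 and 2. With no detection call, signal over background is unknown, which limits Foxc2 in DKO most.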
